A study of Mus musculus with 9 samples.

Results

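The proteasome subunits described here are the mouse genes whose symbol is Psma, Psmb, Psmc, Psmd or Psme followed by a number. They were taken by symbol alone from the annotation of an Affymetrix expression array. The family itself was chosen with earlier results of these data known. Of 12393 genes with a probe set of their own, 41 are members, and each was read from its brightest probe set. A log2 signal of at least 4.979, the 40th percentile of all gene means, was reached by 40 of them, which are among the 7436 genes tested. The member below it is Psma8, the testis form of an alpha subunit, at 2.99 to 3.22 on the 9 arrays. Psme2 has a single probe set that the annotation assigns to Psme2 and Psme2b together, so its values are given apart and it is not counted among the 41. Of the 40 tested, 4 belong to the immunoproteasome (Psmb8, Psmb9, Psmb10 and Psme1) and 36 are called constitutive here.

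RNA came from CD4+CD25+ regulatory T cells of strain C57BL6, separated with magnets. Each of 3 groups has 3 arrays: wild type, a CD4-cre conditional knockout of Sirt1, and a Foxp3-cre conditional knockout of Sirt1. Sirt1 encodes an NAD-dependent deacetylase. CD4-cre is active in T cells in general and Foxp3-cre in cells that use the Foxp3 gene, which marks regulatory T cells. The age and sex of the mice, the deleted part of Sirt1, and whether the wild type mice carried a Cre or a floxed allele were not stated in the sources used here. Nothing in the labels states that the samples of a group came from separate animals, so the spread between them may be technical in part.

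The proteasome degrades proteins that carry ubiquitin chains. Its core is a barrel of stacked rings: the outer rings of alpha subunits (Psma genes) gate the entrance, and the inner rings of beta subunits (Psmb genes) hold the proteases. A regulatory particle caps the barrel, with a ring of ATPases (Psmc genes) that unfolds the substrate and non-ATPase subunits (Psmd genes) that bind and remove ubiquitin. In lymphocytes, and elsewhere after interferon-gamma, Psmb9, Psmb10 and Psmb8 take the places of the proteases Psmb6, Psmb7 and Psmb5, and the Psme1 and Psme2 products form a separate cap. This immunoproteasome is known for making peptides for MHC class I.

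Upstream sequences are shown for protease genes that exchange places, the constitutive Psmb5 and Psmb6 against the immunoproteasome's Psmb8 and Psmb9, because the constitutive and inducible forms are read apart throughout. Each runs 5′ to 3′ on the gene's strand, from 250 bases before the RefSeq start to 50 bases after it, in GRCm38.p6. The windows are chr14:54617946-54618245 (minus strand) for Psmb5, chr17:34197945-34198244 (plus strand) for Psmb8, chr11:70525107-70525406 (plus strand) for Psmb6 and chr17:34187281-34187580 (minus strand) for Psmb9. Capitals mark matches to TGACNNNGC, the core of the antioxidant response element that NRF1 and NRF2 bind, in Psmb5 and Psmb6, and to TTCNNNGAA, the gamma-interferon activation site, in Psmb8.
Psmb5: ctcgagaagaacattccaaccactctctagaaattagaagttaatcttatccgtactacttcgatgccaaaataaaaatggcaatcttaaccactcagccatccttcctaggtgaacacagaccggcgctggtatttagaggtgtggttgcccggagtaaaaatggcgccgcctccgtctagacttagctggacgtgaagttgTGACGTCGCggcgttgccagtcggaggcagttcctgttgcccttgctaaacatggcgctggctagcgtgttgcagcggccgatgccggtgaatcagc
Psmb8: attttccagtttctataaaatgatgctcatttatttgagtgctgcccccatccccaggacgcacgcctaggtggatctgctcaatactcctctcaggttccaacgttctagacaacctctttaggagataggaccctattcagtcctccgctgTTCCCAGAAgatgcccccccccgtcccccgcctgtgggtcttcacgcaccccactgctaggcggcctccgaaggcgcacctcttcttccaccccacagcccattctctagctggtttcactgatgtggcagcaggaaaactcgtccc
Psmb6: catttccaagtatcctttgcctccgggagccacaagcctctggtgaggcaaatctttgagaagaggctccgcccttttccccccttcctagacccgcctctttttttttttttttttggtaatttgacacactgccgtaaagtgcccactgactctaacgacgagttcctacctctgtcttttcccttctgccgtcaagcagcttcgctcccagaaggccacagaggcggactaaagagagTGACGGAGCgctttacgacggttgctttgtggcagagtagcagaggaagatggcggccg
Psmb9: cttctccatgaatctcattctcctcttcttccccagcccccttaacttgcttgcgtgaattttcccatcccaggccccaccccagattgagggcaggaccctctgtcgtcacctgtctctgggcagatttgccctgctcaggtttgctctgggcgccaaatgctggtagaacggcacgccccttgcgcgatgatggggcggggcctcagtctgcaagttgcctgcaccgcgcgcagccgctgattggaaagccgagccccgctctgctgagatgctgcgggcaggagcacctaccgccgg
Counted from the start as base 1 with no base 0, the marked bases lie at -47 to -39 in Psmb5, -9 to -1 in Psmb6 and -97 to -89 in Psmb8. A promoter window was found for 34 of the 41 members, 36 windows in all. On either strand, TGACNNNGC was present in 6 of the 36 windows (16.7%), against 12.4% of all 32851 windows. TTCNNNGAA was present in 2 (5.56%) against 8.3%, and the interferon-stimulated response element core (GAAA, any pair of bases, GAAA) in 4 (11.1%, those of Psmb3, Psmd4, Psmd9 and Psme1) against 3.44%. A loose kappaB pattern (GGG, any run of 5 bases, CC) was present in 19 (52.8%) against 50.8%, and CCAAT in 13 (36.1%) against 37.4%. Psmb9 holds none of the first 3 of these in this window. These matches describe letters and not bound sites.

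The array labelled wild type 2 stood apart from the other 8. Over all probe sets it correlated with them at 0.982 to 0.987, and the others with each other at 0.992 or more. Its 5′ minus 3′ signal, a measure of RNA degradation, was -1.53 for beta-actin against -0.68 to -0.45 elsewhere, and -1.10 for Gapdh against -0.36 to -0.05. Sirt1 read 7.91, 6.77 and 7.90 on the wild type arrays, 7.69, 7.59 and 7.59 on the CD4-cre arrays, and 7.66, 7.54 and 7.47 on the Foxp3-cre arrays, so the array labelled wild type 2 was below every knockout array. A probe set outside the deleted part would check nothing. Of the genes that define the cells, Cd4 averaged 9.06, 8.75 and 8.97 and Il2ra, which encodes CD25, averaged 8.48, 8.47 and 8.60 for wild type, CD4-cre and Foxp3-cre. Foxp3 was at 9.16 to 9.69 on the wild type and CD4-cre arrays and at 2.67, 3.38 and 2.83 on the Foxp3-cre arrays. Genotypes below are those of the labels.

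By their brightest probe sets, no proteasome members were called changed in either knockout with all arrays and no array weights. All values are log2 signals, so a difference of 1 means a 2-fold change. Calls are at a limma adjusted p below 0.05, adjusted over all 7436 genes. By that rule 0 of the 40 members changed in CD4-cre, where 0.659% of all genes did, and 0 of 40 changed in Foxp3-cre, where 3.36% did. Without adjustment, 5 members were higher and 1 was lower in CD4-cre at p below 0.05, and 9 were higher and 0 lower in Foxp3-cre. Over all genes these unadjusted counts were 549 higher and 498 lower in CD4-cre, and 778 higher and 803 lower in Foxp3-cre. The members' differences ran from -0.36 (Psmc5) to 0.46 (Psmb2) for CD4-cre and from -0.19 (Psmb10) to 0.58 (Psme3) for Foxp3-cre. The standard error of a difference had a median of 0.10 over the members, so small shifts were within the spread of 3 arrays a group. In bulk RNA, fewer cells with a transcript and less of it in each cell cannot be told apart.

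The constitutive subunits were displaced upward more often than downward. In CD4-cre 23 of the 36 lay above wild type, with a median difference of 0.05, and in Foxp3-cre 27 of 36 did, with a median of 0.14. Over all genes 56.3% lay above wild type in CD4-cre (median 0.03) and 51.1% in Foxp3-cre (median 0.01). The 4 immunoproteasome subunits had medians of 0.01 in each knockout. Without the array labelled wild type 2, 24 of the 36 constitutive subunits were above wild type in CD4-cre (median 0.05) and 31 of 36 for Foxp3-cre (median 0.11). The share of all genes above wild type was then 50.9% (median 0.0034) and 46.1% (median -0.015). The immunoproteasome medians turned slightly negative, to -0.0022 and -0.026. These are descriptions of the lists, and the comparisons share the wild type arrays.

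**Figure D1:**
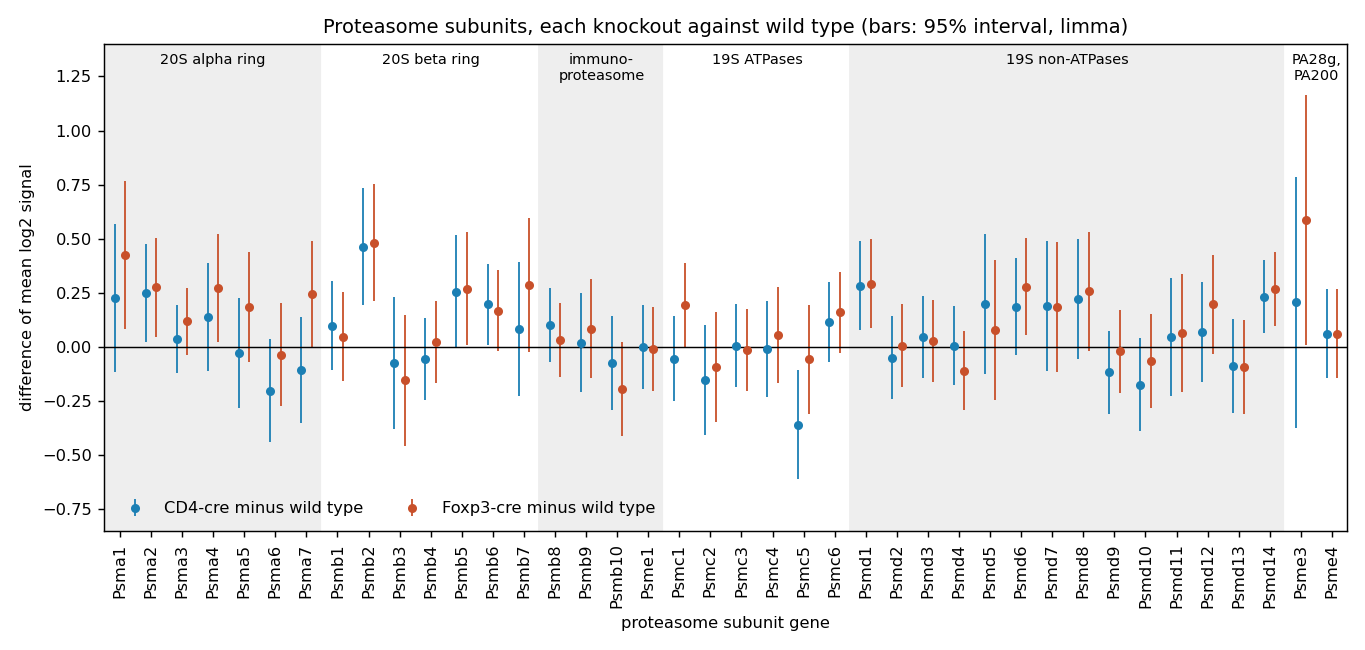
Difference of mean log2 signal from wild type for each of the 40 tested proteasome subunits, grouped by their place in the complex. Blue points are CD4-cre and orange points Foxp3-cre, with bars for limma's 95% interval. Psmb2 lies farthest above 0 for CD4-cre, at 0.46, and Psmc5 farthest below, at -0.36.

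Complete separation of the arrays was about as common as elsewhere on the array in CD4-cre. All 3 CD4-cre arrays exceeded all 3 wild type arrays for 6 of the 40 members (against 11.9% of all genes): Psma2, Psmb2, Psmb6, Psmb8, Psmd1 and Psmd14. They lay below for 2, Psmc5 and Psmd9, against 9.16% of all genes. In Foxp3-cre the arrays lay above for 7 members (against 11.1% of all genes): Psma1, Psma2, Psma3, Psmb2, Psmd1, Psmd6 and Psmd14. They lay below for 2, Psmb10 and Psmd4 (against 12.2%). For Psma2, Psmb2, Psmd1 and Psmd14 all 6 knockout arrays exceeded all 3 wild type arrays, whereas 5.66% of all genes did so, and for 0 members did they all lie below (5.29% of all genes).

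Among the alpha subunits, which form the gated outer rings, Foxp3-cre stood above wild type for 6 of 7 and CD4-cre for 4 of 7, with medians of 0.24 and 0.04. The furthest above wild type in Foxp3-cre was Psma1 (1415695_at). It read 10.03, 9.33 and 9.81 on the wild type arrays, 9.93, 10.01 and 9.91 on the CD4-cre arrays, and 10.20, 10.19 and 10.06 on the Foxp3-cre arrays. The Foxp3-cre arrays lie above all wild type arrays, and the low one is the array labelled wild type 2. The difference was 0.43 (SE 0.15, 95% interval 0.08 to 0.77, limma adjusted p = 0.152) for Foxp3-cre and 0.23 (SE 0.15, adjusted p = 0.522) for CD4-cre. Without the array labelled wild type 2 these became 0.23 and 0.03.

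Psma2 (1448206_at) had the largest CD4-cre difference of the ring. Its signals were 11.12, 10.73 and 10.91 for wild type, 11.14, 11.21 and 11.16 for CD4-cre, and 11.27, 11.18 and 11.14 for Foxp3-cre. All 6 knockout arrays exceeded wild type, the nearest by little. The differences were 0.25 (SE 0.10, limma adjusted p = 0.317) and 0.28 (SE 0.10, adjusted p = 0.162), and without the array labelled wild type 2 they were 0.16 and 0.18. At the other end was Psma6 (1437144_x_at), at 10.53, 10.83 and 10.45 for wild type, 10.34, 10.46 and 10.40 for CD4-cre, and 10.65, 10.56 and 10.49 for Foxp3-cre. Here the array labelled wild type 2 was the highest of the 9, and the groups overlapped. The Psma6 difference was -0.20 (SE 0.11, adjusted p = 0.420) for CD4-cre and -0.04 (SE 0.11, adjusted p = 0.859) for Foxp3-cre. A second Psma6 probe set (1416506_at) gave 0.05 and 0.30, the opposite side. The set used stood at -0.09 and 0.08 without the array labelled wild type 2. By the sets used, the other 4 alpha subunits lay between -0.11 (Psma7) and 0.14 (Psma4) for CD4-cre and between 0.12 (Psma3) and 0.27 (Psma4) for Foxp3-cre. Second bright sets read higher in both knockouts. They gave 0.17 for CD4-cre and 0.38 for Foxp3-cre for Psma7 (1423568_at), and 0.24 and 0.40 for Psma5 (1424681_a_at).

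Psmb2, a structural subunit of the beta ring without protease activity of its own, differed most from wild type in CD4-cre and had the smallest p of all members in each knockout. Psmb2 (1448262_at) read 9.64, 9.15 and 9.39 on the wild type arrays. It read 9.81, 9.84 and 9.91 on the CD4-cre arrays and 9.98, 9.83 and 9.81 on the Foxp3-cre arrays. Every knockout array was above every wild type array, and the wild type arrays spread more widely than either knockout group. The difference was 0.46 (SE 0.12, 95% interval 0.19 to 0.73, 1.38-fold, limma adjusted p = 0.139) for CD4-cre. In Foxp3-cre it was 0.48 (SE 0.12, 95% interval 0.21 to 0.75, 1.40-fold, adjusted p = 0.0622). For the mean of both knockouts it was 0.47 (SE 0.10, adjusted p = 0.0529), just short of the threshold. In that contrast 0 of 40 members were called, 2.26% of all genes were, and 9 members were higher and 0 lower at unadjusted p below 0.05, against 10.6% and 9.52% of all genes. Without the array labelled wild type 2 that last difference was 0.35 (SE 0.08, adjusted p = 0.0481), which passed, where 1.64% of all genes were called higher.

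The other structural beta subunit named for its size of change was Psmb3 (1460198_a_at), lowest of the ring in both knockouts. It read 10.44, 10.99 and 10.46 for wild type, 10.55, 10.59 and 10.52 for CD4-cre, and 10.46, 10.50 and 10.46 for Foxp3-cre. A single high array, the one labelled wild type 2, sets the wild type mean, and the remaining 8 arrays lie within a narrow band. The differences were -0.07 (SE 0.13, limma adjusted p = 0.821) and -0.16 (SE 0.13, adjusted p = 0.514). Without the array labelled wild type 2 they were 0.11 and 0.03. A second bright Psmb3 set (1417052_at) gave 0.22 for CD4-cre and 0.16 for Foxp3-cre with all arrays. Psmb1 and Psmb4, also without protease activity, stood at 0.10 and -0.05 for CD4-cre and at 0.05 and 0.02 for Foxp3-cre. A second bright Psmb4 set (1438984_x_at) gave -0.39 for CD4-cre and -0.07 for Foxp3-cre.

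The constitutive proteases were all nominally above wild type, none past the threshold with all arrays and no array weights. Psmb5 (1415676_a_at), the chymotrypsin-like subunit, read 9.41, 8.91 and 9.23 for wild type, 9.39, 9.49 and 9.43 for CD4-cre, and 9.50, 9.40 and 9.45 for Foxp3-cre. Wild type 1 lay within the range of the knockouts, and the array labelled wild type 2 far below it. The differences were 0.26 (SE 0.12, limma adjusted p = 0.362) and 0.27 (SE 0.12, adjusted p = 0.225). The Psmb5 differences were 0.12 and 0.13 without the array labelled wild type 2. Psmb6 (1448822_at), the caspase-like subunit, read 9.67, 9.50 and 9.43 for wild type, 9.76, 9.74 and 9.70 for CD4-cre, and 9.73, 9.75 and 9.63 for Foxp3-cre. CD4-cre was clear of wild type, while 1 Foxp3-cre array fell within its range. The differences were 0.20 (SE 0.08, adjusted p = 0.336) and 0.17 (SE 0.08, adjusted p = 0.279). Psmb7 (1416240_at), the trypsin-like subunit, read 9.76, 9.31 and 9.39 for wild type, 9.73, 9.54 and 9.44 for CD4-cre, and 9.91, 9.60 and 9.81 for Foxp3-cre. The groups overlapped for Psmb7, at 0.08 (SE 0.14, adjusted p = 0.808) and 0.29 (SE 0.14, adjusted p = 0.266), which became -0.0089 and 0.20 without that array.

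The immunoproteasome counterparts showed no call either, and their intervals bound any difference. Psmb8 (1422962_a_at), which replaces Psmb5, read 11.13, 11.14 and 10.99 for wild type, 11.23, 11.16 and 11.16 for CD4-cre, and 11.17, 11.04 and 11.13 for Foxp3-cre. CD4-cre lay just above all wild type arrays, and Foxp3-cre overlapped them. The differences were 0.10 (SE 0.08, 95% interval -0.07 to 0.27, limma adjusted p = 0.573) and 0.03 (SE 0.08, 95% interval -0.14 to 0.20, adjusted p = 0.828). Psmb9 (1450696_at), which replaces Psmb6, read 10.51, 10.14 and 10.32 for wild type, 10.34, 10.36 and 10.33 for CD4-cre, and 10.50, 10.31 and 10.42 for Foxp3-cre. Both knockouts fell inside the wild type range. The differences were 0.02 (SE 0.10, 95% interval -0.21 to 0.25, adjusted p = 0.944) and 0.08 (SE 0.10, 95% interval -0.14 to 0.31, adjusted p = 0.641). They were -0.07 and -0.0083 without the array labelled wild type 2.

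Psmb10 (1448632_at), which replaces Psmb7, was the lowest member in Foxp3-cre. It read 10.05, 10.32 and 9.96 for wild type, 10.02, 10.04 and 10.05 for CD4-cre, and 9.91, 9.96 and 9.89 for Foxp3-cre. All Foxp3-cre arrays were below wild type, the closest by less than the rounding shown, and the array labelled wild type 2 was the highest. The differences were -0.19 (SE 0.10, 95% interval -0.41 to 0.02, limma adjusted p = 0.278) for Foxp3-cre and -0.08 (SE 0.10, adjusted p = 0.744) for CD4-cre. Without the array labelled wild type 2 they were -0.09 and 0.03. Of the cap genes, Psme1 (1417056_at) read 11.25, 11.02 and 11.00 for wild type, 11.09, 11.10 and 11.09 for CD4-cre, and 11.15, 11.01 and 11.08 for Foxp3-cre. The knockouts lay inside the wild type range, at 0.00 (SE 0.09, 95% interval -0.19 to 0.19, adjusted p = 0.998) and -0.01 (SE 0.09, 95% interval -0.20 to 0.18, adjusted p = 0.961). The probe set shared by Psme2 and Psme2b (1417189_at) read 10.93, 10.64 and 10.78, then 10.84, 10.93 and 10.81, then 10.95, 10.87 and 10.81 in the same order. Added to the genes tested, it stood at 0.08 (SE 0.09, adjusted p = 0.711) and 0.09 (SE 0.09, adjusted p = 0.552), with overlapping groups.

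**Figure D2:**
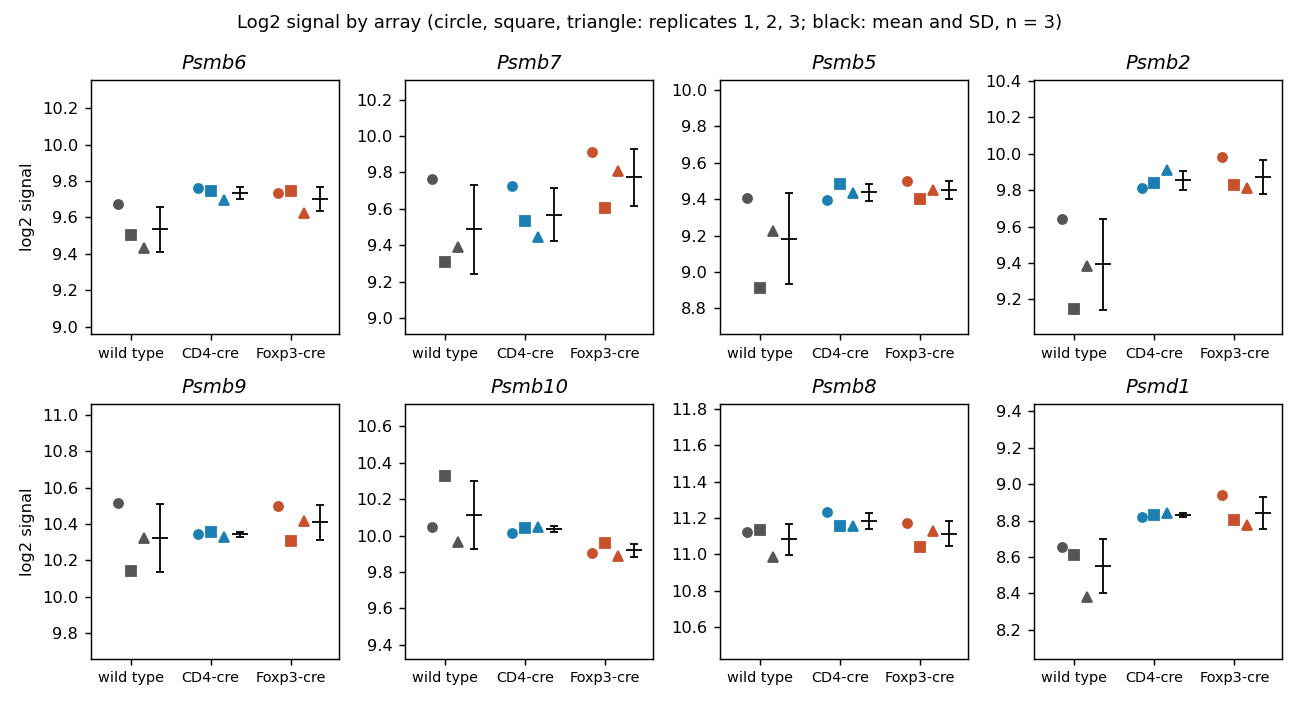
Log2 signal on each array for the constitutive proteases Psmb6, Psmb7 and Psmb5 above the immunoproteasome proteases Psmb9, Psmb10 and Psmb8 that replace them, with Psmb2 and Psmd1 at the right. Circles, squares and triangles are replicates 1, 2 and 3, and black bars give the mean and SD of 3 arrays. Every panel spans the same height on the log2 scale. The Psmb2 wild type arrays reach 9.64 and the lowest knockout array is at 9.81.

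The ATPases of the regulatory particle had medians of -0.03 for CD4-cre and 0.02 for Foxp3-cre, with 2 and 3 of 6 above wild type. Psmc5 (1415740_at) was the lowest of all 40 members in CD4-cre by the probe sets used. It read 8.83, 9.10 and 8.70 for wild type, 8.44, 8.58 and 8.53 for CD4-cre, and 8.96, 8.73 and 8.78 for Foxp3-cre. The CD4-cre arrays lay below those of both other groups, and Foxp3-cre overlapped wild type. The differences were -0.36 (SE 0.11, 95% interval -0.61 to -0.11, limma adjusted p = 0.205) for CD4-cre and -0.06 (SE 0.11, adjusted p = 0.782) for Foxp3-cre. Without the array labelled wild type 2 the CD4-cre difference was -0.25 (adjusted p = 0.154).

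Psmc1 (1416005_at) was the furthest above wild type in Foxp3-cre among the ATPases. It read 8.14, 8.32 and 8.14 for wild type, 8.10, 8.16 and 8.18 for CD4-cre, and 8.51, 8.28 and 8.39 for Foxp3-cre. Foxp3-cre exceeded CD4-cre on every array and overlapped wild type through the array labelled wild type 2. The Foxp3-cre difference was 0.19 (SE 0.09, limma adjusted p = 0.239), and the CD4-cre one -0.05 (SE 0.09, adjusted p = 0.798). Psmc2 (1435859_x_at) read 9.81, 10.04 and 9.63 for wild type, 9.64, 9.81 and 9.59 for CD4-cre, and 9.79, 9.77 and 9.64 for Foxp3-cre. The groups overlapped, and the differences were -0.15 (SE 0.11, adjusted p = 0.565) and -0.09 (SE 0.11, adjusted p = 0.650). A second bright Psmc2 set (1426611_at) gave 0.09 and 0.13, the opposite side. Psmc6 (1417771_a_at) read 9.41, 9.20 and 9.30 for wild type, 9.44, 9.48 and 9.34 for CD4-cre, and 9.53, 9.47 and 9.40 for Foxp3-cre. Its groups overlapped too, at 0.12 (SE 0.08, adjusted p = 0.547) and 0.16 (SE 0.08, adjusted p = 0.297). Psmc2 stood at -0.04 and 0.02, and Psmc6 at 0.06 and 0.11, without the array labelled wild type 2. Psmc3 and Psmc4 stood within 0.06 of wild type in both by the sets used. A second bright Psmc4 set (1416290_a_at) gave -0.20 for CD4-cre and 0.06 for Foxp3-cre.

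Of the 14 non-ATPase members 10 were above wild type in each knockout, with medians of 0.06 for CD4-cre and 0.07 for Foxp3-cre. Psmd1 (1429291_at), a large scaffold subunit at the base of the particle, was furthest above in both. It read 8.65, 8.61 and 8.38 for wild type, 8.82, 8.83 and 8.84 for CD4-cre, and 8.94, 8.80 and 8.78 for Foxp3-cre. All 6 knockout arrays exceeded wild type, and here the low wild type array was wild type 3. The differences were 0.28 (SE 0.09, 95% interval 0.08 to 0.49, limma adjusted p = 0.215) and 0.29 (SE 0.09, 95% interval 0.09 to 0.50, adjusted p = 0.107).

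Psmd14 (1421751_a_at), the metalloprotease that removes ubiquitin chains from substrates, also separated the knockouts from wild type. It was chosen for naming after its values were seen. It read 10.21, 10.11 and 10.01 for wild type, 10.36, 10.34 and 10.34 for CD4-cre, and 10.43, 10.36 and 10.35 for Foxp3-cre. The 6 knockout arrays lay close together, above the wild type arrays. The differences were 0.23 (SE 0.08, limma adjusted p = 0.221) and 0.27 (SE 0.08, adjusted p = 0.0897), and without the array labelled wild type 2 they were 0.23 and 0.27 as well. Psmd4 (1418874_a_at), a ubiquitin receptor, was lowest in Foxp3-cre: it read 9.82, 10.03 and 9.82 for wild type, 9.85, 9.92 and 9.92 for CD4-cre, and 9.80, 9.72 and 9.81 for Foxp3-cre. Foxp3-cre lay narrowly below every other array, at -0.11 (SE 0.08, adjusted p = 0.446), while CD4-cre stood at 0.00 (SE 0.08, adjusted p = 0.982). Psmd10 (1436559_a_at), an assembly chaperone also called gankyrin, read 6.93, 6.64 and 6.80 for wild type, 6.48, 6.70 and 6.67 for CD4-cre, and 6.75, 6.69 and 6.73 for Foxp3-cre. Its groups overlapped, at -0.17 (SE 0.10, adjusted p = 0.444) and -0.07 (SE 0.10, adjusted p = 0.705). Psmd4 stood at 0.07 and -0.04, and Psmd10 at -0.25 and -0.14, without the array labelled wild type 2. The assembly chaperones Psmd5 and Psmd9 stood at 0.20 and -0.12 for CD4-cre and at 0.08 and -0.02 for Foxp3-cre.

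Psme3 and Psme4 encode alternative caps found mainly in the nucleus. Psme3 (1418078_at) had the largest difference of any member in Foxp3-cre, and its value rested on 1 array. It read 7.89, 6.70 and 7.65 for wild type, 7.71, 7.62 and 7.52 for CD4-cre, and 8.14, 7.81 and 8.04 for Foxp3-cre. The array labelled wild type 2 was lowest by far, and wild type 1 lay above 1 Foxp3-cre array. The difference was 0.58 (SE 0.26, 95% interval 0.01 to 1.16, limma adjusted p = 0.231) for Foxp3-cre and 0.21 (SE 0.26, adjusted p = 0.740) for CD4-cre. Without that array they were 0.23 and -0.15. A second bright Psme3 probe set (1418079_at) gave 0.16 and 0.11 with all arrays, and a dim further one (1438509_at), below the threshold of signal, gave -0.01 for Foxp3-cre. Psme4 (1426823_s_at) stood at 0.06 in each knockout.

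Probe sets of the same gene often disagreed about the array labelled wild type 2. It had the lowest of 9 values for 15 of the 40 members (37.5%) and the highest for 10 (25%), against 35.9% and 23.5% of all genes tested. Of 15 members with more than 1 probe set above the threshold, 35 sets in all, 10 had sets on both sides of the mean of the other wild type arrays. For Psmb3 the set used read 10.99 there, above the other wild type arrays, and a second set (1417052_at) read 9.36, below them. What sets this array apart was not tested. Each probe set was therefore also tested by itself, an alternative chosen after seeing the data, with 60 member sets among 11363. In that fit 1 member set was called higher, a Psmd11 set that was not the brightest (1440253_at), where 2.86% of all sets were called in Foxp3-cre and 1.64% for the mean of both knockouts. Psmd11 encodes a lid subunit. This set read 9.21, 9.12 and 9.22 for wild type, 9.53, 9.49 and 9.59 for CD4-cre, and 9.56, 9.62 and 9.59 for Foxp3-cre. Every knockout array was above wild type, and the array labelled wild type 2 read close to its group. Psmd11 rose by 0.41 for Foxp3-cre (limma adjusted p = 0.0255) and stood at 0.36 for CD4-cre (adjusted p = 0.0749) by this set. The brightest Psmd11 set, 1437080_s_at, gave 0.06 for Foxp3-cre and 0.04 for CD4-cre. The remaining Psmd11 sets gave -0.09 and 0.19 for Foxp3-cre, and 0.01 and -0.03 for CD4-cre.

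**Figure D3:**
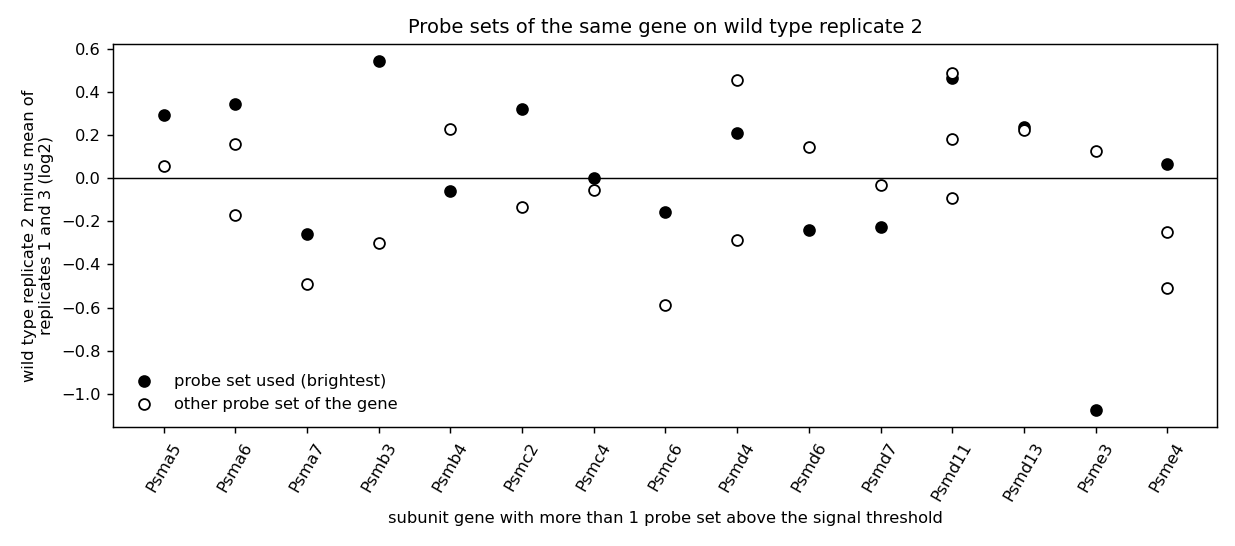
Log2 signal on the array labelled wild type 2 minus the mean of the other wild type arrays, for each probe set of the 15 subunit genes with more than 1 set above the signal threshold. Filled points are the sets used and open points the gene's other sets. In 10 of the 15 genes the points lie on both sides of 0, as for Psmb3.

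The number of members called was larger with limma's array weights, which reweighted every array, from 0.082 for the array labelled wild type 2 to 2.59 for CD4-cre 1. With them 5 of 40 members rose in CD4-cre: Psma2, Psmb2, Psmb6, Psmd1 and Psmd14. In Foxp3-cre 8 rose: Psma1, Psma2, Psma5, Psmb2, Psmb6, Psmd1, Psmd6 and Psmd14. No member fell in either, and none of the immunoproteasome subunits was among them. All genes moved with this setting: 8.43% of them were called higher in CD4-cre and 8.74% in Foxp3-cre, so 5 and 8 of 40, or 12.5% and 20%, stand beside a raised background. Psmb2 then had a difference of 0.42 (SE 0.07, limma adjusted p = 0.00518) for CD4-cre and 0.42 (SE 0.07, adjusted p = 0.00537) for Foxp3-cre. Dropping the array labelled wild type 2 altogether gave 0 members in each knockout, where 0.753% and 2.69% of all genes were called higher, with 4 higher and 2 lower in CD4-cre and 9 higher and 0 lower in Foxp3-cre at unadjusted p below 0.05. Of the 7436 genes, 746 were higher and 862 lower by that measure for CD4-cre, and 801 higher and 1176 lower for Foxp3-cre. Dropping wild type 1 instead gave 5 for Foxp3-cre (Psma1, Psma2, Psmb2, Psmd6 and Psmd14), where 3.05% of all genes were called higher, and 0 for CD4-cre, where 0.161% were. For both knockouts against wild type, Psma2 and Psmb2 were called without wild type 1 (1.69% of all genes were called higher), and array weights called 10 members (9.58%). Psmb2 alone was called in that contrast with a stricter filter at the 60th percentile (1.03%), with trended, robust moderation (0.968%), with the replicate number as a block (1.67%) and after quantile normalization (0.968%).

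Between the knockouts the alpha subunits lay to one side, with none past the test. The Foxp3-cre mean was above the CD4-cre mean for 7 of 7, with a median difference of 0.17 and 1 at unadjusted p below 0.05, and the arrays did not overlap for 5 of them. Over all 40 members 27 were higher in Foxp3-cre (median 0.04), against 45.3% of all genes (median -0.02). By limma's adjusted p 0 members differed, against 0.0134% of all genes, and 3 members were higher and 0 lower at unadjusted p below 0.05, against 5.14% and 6.16% of all genes. The arrays were separate for 11 members above (against 10.9% of all genes) and 5 below (against 18.8%). Psma7 (1423567_a_at) differed most among the alpha subunits. It read 9.09, 8.72 and 8.87 for wild type, 8.74, 8.85 and 8.77 for CD4-cre, and 9.26, 8.99 and 9.16 for Foxp3-cre, and was named after its values were seen. The knockouts did not overlap, and the wild type arrays spanned the gap. The difference between the knockouts was 0.35 (SE 0.11, limma adjusted p = 0.271) by this set and 0.22 by a second bright one (1423568_at). For Psmc5 it was 0.30 (SE 0.11, adjusted p = 0.347) and for Psmc1 0.25 (SE 0.09, adjusted p = 0.317). With array weights these 3 genes were called higher in Foxp3-cre, where 4.69% of all genes were.

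Genes that build, control or supply the proteasome were read from lists chosen by function. Of 13 tested assembly factors and cofactors 0 passed limma's test in either knockout, with medians of 0.08 for CD4-cre and 0.07 for Foxp3-cre. At unadjusted p below 0.05, 1 was higher in CD4-cre, and 1 was higher and 1 lower in Foxp3-cre. Uchl5, a ubiquitin hydrolase of the regulatory particle, read 7.99, 7.35 and 7.72 for wild type, 7.92, 7.98 and 7.98 for CD4-cre, and 8.44, 8.07 and 8.18 for Foxp3-cre. Foxp3-cre exceeded both other groups for Uchl5, at 0.54 (SE 0.15, limma adjusted p = 0.0933) against wild type. Akirin2, of the same list, was called without the array labelled wild type 2, where it fell by 0.30 (SE 0.07, adjusted p = 0.042) in Foxp3-cre. Psmg4, an assembly chaperone, stood at 0.27 for CD4-cre and 0.22 for Foxp3-cre, and Pomp, which matures the core, at 0.08 and 0.12. Of 12 transcription factors and processing factors that act on proteasome genes, 0 passed in CD4-cre (1 higher and 1 lower without adjustment) and 1 fell in Foxp3-cre. It was Maff, a small Maf partner of the NRF factors, which fell by 0.73 (SE 0.13, adjusted p = 0.0211). Nfe2l1, the NRF1 gene, stood at -0.07 and -0.13, and Nfe2l2, the NRF2 gene, at -0.24 and -0.26. Nfe2l2 read 8.31, 7.49 and 8.37 on the wild type arrays and between 7.77 and 7.83 on the 6 knockout arrays, so the array labelled wild type 2 was the lowest of the 9. Without it Nfe2l2 fell by 0.53 (SE 0.06, adjusted p = 0.0068) in CD4-cre, the 1 of the 12 called there. In Foxp3-cre 3 of the 12 fell without it: Nfe2l2 by 0.54 (SE 0.06, adjusted p = 0.00295), Maff, and Irf1, an interferon regulatory factor. Of 8 genes of ubiquitin shuttling and ligation 0 passed in either, with 1 higher and 1 lower at unadjusted p below 0.05 for CD4-cre and 0 for Foxp3-cre, the furthest being Rad23b at -0.27 and Ube3c at 0.20 for CD4-cre. Rad23b, which shuttles ubiquitinated proteins to the proteasome, fell by 0.37 (SE 0.07, adjusted p = 0.0363) in CD4-cre once the array labelled wild type 2 was left out.

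Among genes that work with the immunoproteasome, the class I presentation list moved with the array labelled wild type 2. The interferon response list lay mostly below wild type with and without that array. Of 12 class I presentation genes 0 passed in either knockout, where 0 and 2 were lower and 0 higher at unadjusted p below 0.05, and their medians were 0.04 for CD4-cre and 0.02 for Foxp3-cre. Tap2 and Tapbpl, of the peptide loading machinery, were lowest in Foxp3-cre, at -0.21 (SE 0.08, limma adjusted p = 0.183) and -0.20 (SE 0.08, adjusted p = 0.197). Both class I medians changed side without the array labelled wild type 2, to -0.09 for CD4-cre, with 9 of 12 below wild type, and -0.05 for Foxp3-cre, with 10 of 12 below. Tapbpl then fell in Foxp3-cre, by 0.25 (SE 0.06, adjusted p = 0.0435), and 0 passed in CD4-cre. Array weights called 2 of the 12 lower in Foxp3-cre. Of 25 interferon response genes 24 lay below wild type in CD4-cre (median -0.31) and 21 for Foxp3-cre (median -0.15). In each knockout 1 of the 25 fell by the test, Oasl1, an interferon-induced antiviral gene, at -0.89 (SE 0.13, adjusted p = 0.0168) and -0.78 (SE 0.13, adjusted p = 0.0163). Leaving out the array labelled wild type 2, 4 of the 25 fell in each knockout. Of all genes, 135 then fell in CD4-cre and 367 in Foxp3-cre. Without that array 25 of 25 lay below wild type in CD4-cre (median -0.40) and 22 in Foxp3-cre (median -0.19). The 4 that fell without it were Oasl1, Gbp2 and Irf9 in both, with Oasl2 in CD4-cre and Irf1 in Foxp3-cre. Array weights called 15 of the 25 lower in CD4-cre and 9 in Foxp3-cre, where 671 and 889 of all genes were. In CD4-cre 0 passed without wild type 1. Psmb8, Psmb9, Psmb10 and Psme1, which interferon-gamma is known to induce, had medians of 0.01 in each knockout with all arrays.

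Cell cycle genes and neutrophil markers rose most in Foxp3-cre, the group in which the alpha ring was highest. Of 26 cell cycle genes 9 rose in Foxp3-cre and 0 for CD4-cre (4 were higher there without adjustment), with medians of 0.81 and 0.30. In Foxp3-cre 19 rose with the replicate number as a block and 14 without wild type 1. Among all genes tested, 126 were called higher in Foxp3-cre and 17 in CD4-cre. For Foxp3-cre that number was 215 with the block and 227 without wild type 1. The array means of the cell cycle list were 7.37 to 7.85 for wild type, 7.89 to 7.99 for CD4-cre and 8.12 to 8.93 for Foxp3-cre. Foxp3-cre 1 had the highest mean of the alpha ring, 10.43, and of the cell cycle list. It was also highest of the 9 arrays for the beta ring (10.12), the ATPases (9.14) and the non-ATPases (8.81). For the immunoproteasome, wild type 1 was highest (10.73). For the neutrophil markers Foxp3-cre 1 had the lowest mean of its group, 8.70. Of 12 neutrophil markers 8 rose in Foxp3-cre and 0 for CD4-cre (6 higher and 1 lower there without adjustment), and their array means were 7.27 to 8.12, 7.76 to 8.50 and 8.70 to 9.47 in the order wild type, CD4-cre, Foxp3-cre. Of 8 monocyte and macrophage markers 1 rose in Foxp3-cre, C1qb (4 with the replicate block), and the means were 6.63 to 7.05, 6.48 to 7.58 and 7.16 to 8.45. Of 8 CD8 T cell and NK cell markers 2 fell in Foxp3-cre, Nkg7 and Prf1 (Nkg7 alone without the array labelled wild type 2). Both were lower in CD4-cre too: Nkg7 averaged 9.59, 9.03 and 9.01 and Prf1 7.01, 6.35 and 6.15 for wild type, CD4-cre and Foxp3-cre. In each knockout 6 of the 8 lay below wild type, with medians of -0.38 for CD4-cre and -0.20 for Foxp3-cre. Of 6 B cell and 5 plasma cell markers 0 passed in either knockout. The B cell array means were 8.15 to 8.77 for wild type and 8.73 to 8.82 for CD4-cre. They were 8.13, 9.33 and 9.50 on the Foxp3-cre arrays, so that group was split. Plasma cell means were 9.22 to 9.35, 9.41 to 9.49 and 9.13 to 9.58 for wild type, CD4-cre and Foxp3-cre. RMA signals have no true 0, so no marker can be said to be absent. The part of these genes in the proteasome values was not tested.

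**Figure D4:**
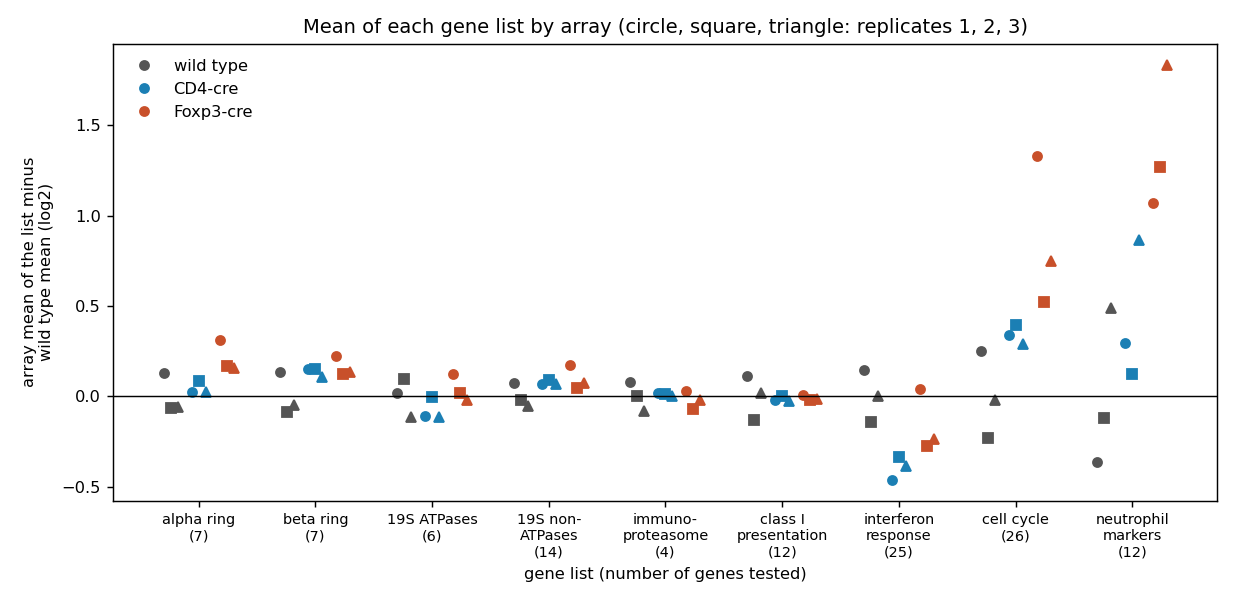
Mean log2 signal of each gene list on each array, minus the mean of the wild type arrays, with the number of tested genes in brackets. Circles, squares and triangles are replicates 1, 2 and 3 of wild type (grey), CD4-cre (blue) and Foxp3-cre (orange). The Foxp3-cre arrays lie above the others for the alpha ring, cell cycle and neutrophil lists. For the alpha ring their means are 10.27 to 10.43, and the highest mean elsewhere is 10.24. For the other proteasome lists the groups overlap. The beta ring averages 9.90 for wild type, 10.04 for CD4-cre and 10.06 for Foxp3-cre.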

How the data were processed

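RNA of 9 samples was hybridised to Affymetrix expression arrays after amplification of 100 ng of total RNA, per the labels. The deposited values are log2 signals, with 1 value per array for each probe set, which the authors made with RMA (per the submitters' processing notes, version not given in the sources used here), and the log2 scale was inferred from the range of 1.57 to 14.06. RMA normalizes between arrays, so a change common to all genes would be removed. The table holds 22690 probe sets, of which 64 control sets were left out and 20380 carry exactly 1 gene symbol in the platform annotation. The brightest set stood for each gene, and genes under the 40th percentile of gene means were not tested. Signals of different probe sets are not compared as levels.

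Groups were taken from the labels and compared by linear models in limma 3.58.1 under R 4.3.3 (eBayes moderation, two-sided, 6 residual and 3.37 prior degrees of freedom, 1 fit over the 3 groups, 4 contrasts). P-values were adjusted by Benjamini-Hochberg over the 7436 genes. With 3 arrays in each group the smallest p of an exact permutation test is 0.1, so it was not used. Precision is limited by 3 arrays a group. The fit was tested on simulated data. Deviations from the group means of same-numbered wild type and Foxp3-cre arrays correlated at 0.20 to 0.25, so a replicate block was also fitted. Per-array values are given for the protease pairs and cap genes, and for the members of each part of the complex furthest above and below wild type in each knockout. Related genes are those called, or else the furthest from wild type in their list, and others are named for their role. Members, lists and alternatives were chosen with earlier results of these data known. Promoters came from RefSeq (GRCm38.p6), and the motif search covered both strands. Alternatives were no filter or a stricter one, moderation with trend, array weights, fits of only the groups compared, a replicate block, other probe set rules, other normalizations, and leaving out each array.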

Additional observations from a re-analysis of the deposited data

How the results depend on the processing

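The count of 0 members called held in CD4-cre under every alternative except array weights, which called 5. In Foxp3-cre array weights called 8 and single probe sets 1. Between the knockouts array weights called 3. For both knockouts against wild type, array weights called 10, and 1 was called with the stricter filter, moderation with trend, the replicate block, quantile normalization (each Psmb2) and single probe sets (Psmd11). Leaving out each array in turn gave 0 to 0 members in CD4-cre, 0 to 5 for Foxp3-cre, 0 to 0 between the knockouts and 0 to 2 for both knockouts, the highest counts without wild type 1. Immunoproteasome medians ranged from -0.013 to 0.097 for CD4-cre, from -0.035 to 0.062 for Foxp3-cre and from -0.034 to 0.081 for both knockouts, the highest without wild type 1. CD4-cre had 49 genes called, 29 with the stricter filter, 1298 with array weights and 22 from only those groups, and 4 to 191 leaving out an array. Foxp3-cre had 250, then 1539 with array weights and 16 from only those groups, and 71 to 567 leaving out an array. Between the knockouts there was 1, then 812 with array weights, 55 from only those groups, 96 with the replicate block, 2 with centred arrays and 5 with quantile normalization, and 1 to 72 leaving out an array. Both knockouts had 168, then 1604 with array weights, and 54 to 399 leaving out an array. Each highest count of all genes came without the array labelled wild type 2. Deviations of same-numbered arrays correlated at 0.20 to 0.25 between wild type and Foxp3-cre, where all 3 pairs passed 0.1, at -0.0056 to 0.23 between wild type and CD4-cre and at -0.03 to 0.49 between the knockouts. Arrays of different numbers correlated at -0.39 to 0.32. The labels name no shared batch. Deviations from a group's own mean depend on each other, so these correlations cannot settle whether same-numbered arrays were paired. CD4-cre 2 and Foxp3-cre 1, of different numbers, correlated at 0.32, above the values between wild type and Foxp3-cre. With the replicate number as a block, 67 genes were called in CD4-cre, 354 for Foxp3-cre and 226 for both knockouts, and 0, 0, 0 and 1 members in the order above. The cause of each of these moves was not tested. Over the 20 members named by rule in 4 contrasts, alternatives other than leaving out an array left 644 values with sign and call unchanged. Another 31 changed sign, and 21 kept their sign and newly passed. Leaving out an array gave 678, 36 and 6 in that order. With array weights, values that changed sign were Psmb10 0.046, Psmb3 0.089, Psmc2 0.015 and Psme3 -0.024 for CD4-cre against wild type, Psma6 0.072, Psmb3 0.010, Psmc2 0.051, Psmc5 0.039 and Psme1 0.016 for Foxp3-cre against wild type, Psmb2 -0.0031, Psmb5 -0.0036 and Psmd1 -0.019 for Foxp3-cre against CD4-cre, Psmb3 0.050, Psmc2 0.033, Psmd4 0.00093 and Psme1 0.033 for both knockouts against wild type. With the mean of all probe sets, values that changed sign were Psmb3 0.073 for CD4-cre against wild type, Psma6 0.11, Psmb3 0.0027 and Psmc2 0.021 for Foxp3-cre against wild type, Psma6 0.046, Psmb3 0.038 and Psmc1 -0.0024 for both knockouts against wild type. With arrays centred on their median, values that changed sign were Psmb9 -0.0058, Psmd4 -0.021 and Psme1 -0.025 for CD4-cre against wild type, Psmb8 -0.0068 for Foxp3-cre against wild type, Psmd1 -0.0035 for Foxp3-cre against CD4-cre. With quantile normalization, values that changed sign were Psme1 -0.0065 for CD4-cre against wild type, Psmb2 -0.0079 and Psmd1 -0.00085 for Foxp3-cre against CD4-cre. Leaving out each array in turn, ranges that crossed 0 were Psmb10 -0.15 to 0.030, Psmb3 -0.17 to 0.11, Psmb7 -0.0089 to 0.22, Psmb9 -0.073 to 0.11, Psmc1 -0.084 to 0.0045, Psmd4 -0.031 to 0.074, Psme1 -0.044 to 0.080 and Psme3 -0.15 to 0.44 for CD4-cre against wild type. For Foxp3-cre against wild type they were Psma6 -0.11 to 0.079, Psmb3 -0.25 to 0.026, Psmb8 -0.017 to 0.069, Psmb9 -0.0083 to 0.18, Psmc2 -0.19 to 0.015, Psmc5 -0.14 to 0.053, Psmd10 -0.14 to 0.0057 and Psme1 -0.053 to 0.071. For Foxp3-cre against CD4-cre they were Psma2 -0.012 to 0.056, Psmb2 -0.034 to 0.050, Psmb5 -0.012 to 0.039, Psmb6 -0.052 to 0.0083, Psmd1 -0.040 to 0.041 and Psme1 -0.043 to 0.025. For both knockouts against wild type they were Psmb3 -0.21 to 0.066, Psmb9 -0.041 to 0.15, Psmd4 -0.088 to 0.017 and Psme1 -0.048 to 0.075.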
